A study of Mus musculus with 4 samples.

Results

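The Wnt ligands, their receptors and their inhibitors were examined in the intact mouse mammary gland with and without the membrane-anchored matrix metalloproteinase Mt1-mmp. The set took every gene whose symbol begins with Wnt, Fzd, Sfrp or Dkk followed by a digit. It added Frzb, Wif1, Lrp5, Lrp6, the R-spondins Rspo1 to Rspo4, the receptors Lgr4 to Lgr6, Ror1 and Ror2, the ligases Znrf3 and Rnf43, and the downstream genes Axin1, Axin2, Dixdc1, Tcf7l1, Tcf7l2 and Lef1. It held 58 of the 17097 genes with a probe set of their own on the array, and each gene was read from its brightest such probe set. The symbol rule also took in Fzd10os, an opposite-strand transcript at the Fzd10 locus that is not a receptor. Sfrp4 was not analysed here, and neither were 3 probe sets that the annotation lists for Sfrp1 together with Serinc3.

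RNA came from inguinal glands of Mt1-mmp(-/-) mice and of Mt1-mmp(+/+) littermates, with 2 biological replicates of each genotype and 1 Affymetrix expression array per replicate. Mice of both genotypes were on an outbred Swiss Black background, were 10 days old and received no treatment named in the labels. The knockout is global, so every cell type of the body lacked the gene, and changes inside the gland cannot be told apart from effects of the rest of the animal. Glands were taken whole, with epithelium, fat, vessels and nerve together, so fewer cells of a type and less RNA per cell cannot be told apart.

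Wnt proteins are secreted lipid-modified ligands that bind frizzled receptors. Together with the co-receptors Lrp5 or Lrp6 they stop the Axin-containing destruction complex from degrading beta-catenin, which then acts with TCF/LEF factors on transcription, while other Wnt signals run through ROR receptors or planar polarity proteins without beta-catenin. In the mammary gland Wnt signals are known for forming the placode, for branching and for maintaining stem and progenitor cells, and in fat tissue they are known for holding back adipocyte differentiation.

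The targeted gene, listed as Mmp14, had log2 values of 5.83 and 5.68 in knockout glands, against 8.92 and 8.73 in wild-type glands. That is 8.40-fold lower in the knockout (limma adjusted p = 0.0738), and whether its probe sets lie in the deleted part was not given in the sources used here. Across the genes tested, the knockout arrays correlated with each other at 0.925 and the wild-type arrays at 0.992. Knockout replicate 2 stood apart in skeletal muscle genes, whose 12 markers summed to a linear level of 356 and 48516 in knockout replicates 1 and 2, against 357 and 3008 in wild-type replicates 1 and 2. Knockout replicate 1 stood apart in epidermis and hair follicle genes, whose 12 markers summed to 10957 and 330 in the knockout, against 811 and 2991 in the wild type. Luminal epithelial markers summed to 2803 and 2409 in the knockout, against 2069 and 1073 in the wild type, and basal epithelial markers to 5147 and 4855, against 4489 and 3878. Acta2 was the brightest basal marker and differed by 0.06 with overlapping groups. Of the 9 basal markers 8 were higher and 1, Oxtr, was lower. Krt14 lay 2.81 above the wild-type mean on knockout replicate 1 and 0.55 above it on replicate 2. The 7 brown fat markers summed to 7835 and 5313 in the knockout, against 14785 and 15679 in the wild type. The 3 Schwann cell markers on the array summed to 1126 and 1285 in the knockout, against 741 and 735 in the wild type. They did not move together, as Mbp and Sox10 differed by 0.83 and 0.71 and Ngfr by -0.58, each without overlap. The 7 macrophage markers summed to 2289 and 2669 in the knockout, against 2926 and 3365 in the wild type, with 6 lower and 1 higher. The part of these cell types in the Wnt gene values was not tested.

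In the knockout gland the Wnt genes differed in both directions, with Dixdc1, Dkk3, Wnt4, Fzd7 and Tcf7l2 higher and Fzd4, Wnt5a, Sfrp2 and Fzd8 lower by at least 0.6 on the log2 scale without overlap between the groups. These 9 genes were 27.3% of the 33 members tested, beside 11% of the 11078 genes tested. By direction, 5 were higher and 4 lower, where 4.4% of all genes tested were higher and 6.63% lower by this measure. Dixdc1 and Fzd4 were at least 2-fold apart without overlap, 6.06% of the members beside 3.33% of all genes tested. Testing took genes whose mean over the arrays reached 4.94, the median over all probe sets, and left out 25 members with a lower mean. Of the 33 tested members, 24 were higher and 9 lower in the knockout, with a median difference of 0.16, beside -0.02 over all genes tested.

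With all 4 arrays no member passed limma's test at a Benjamini-Hochberg adjusted p of 0.05, where 0% of all genes tested passed. At an adjusted p of 0.1, Dixdc1 alone passed, 3.03% of the members beside 0.153% of all genes tested. An unadjusted limma p under 0.05 was reached by 10 members, 6 higher and 4 lower, or 30.3% beside 21.8% of all genes tested, of which 9.69% were higher and 12.1% lower. The groups did not overlap for 21 members, 15 higher and 6 lower, or 63.6% beside 58.8% of all genes tested, of which 26.3% were higher and 32.5% lower. The share of non-overlapping members over both directions lies near the background, while by direction it was 45.5% higher and 18.2% lower. With 2 samples against 2 the smallest p an exact two-sided permutation test can give for a single gene is 0.333.

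The calls turned on the 2 knockout arrays. Without knockout replicate 1, 16 members passed the adjusted threshold, 11 higher and 5 lower, or 48.5% beside 37.7% of all genes tested. Without knockout replicate 2, 6 members passed, 3 higher and 3 lower, or 18.2% beside 11.7% of all genes tested. The same 6 genes passed in both fits, namely Dixdc1, Tcf7l2 and Wnt4 higher and Fzd4, Fzd8 and Sfrp2 lower. In these fits the knockout has 1 array, and its spread is taken from the wild-type pair. Without either wild-type replicate, 0 members passed. An unadjusted p under 0.05 was reached by 18 members without knockout replicate 1, where 50.6% of all genes tested reached it, and by 13 without knockout replicate 2, where 36.3% did. It was reached by 4 members without wild-type replicate 1, beside 5.76% of all genes tested, and by 5 without wild-type replicate 2, beside 5.58%.

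**Figure D1:**
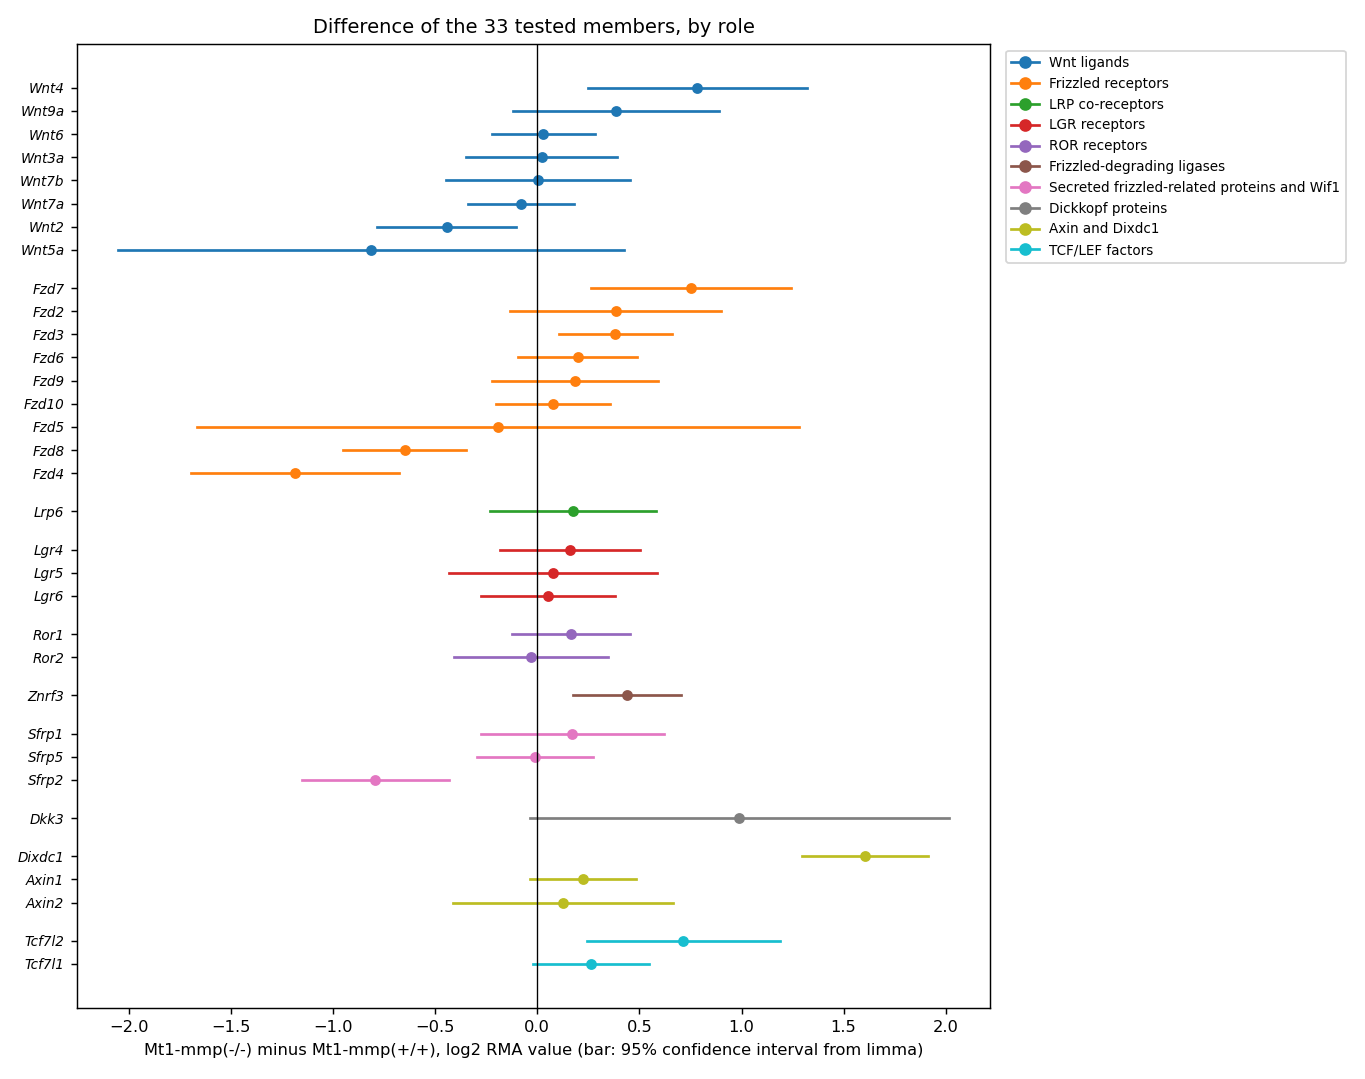
Difference between Mt1-mmp(-/-) and Mt1-mmp(+/+) glands in log2 RMA value for the 33 tested members, ordered by role and, within a role, by size (point: difference of the means of 2 arrays each; bar: 95% confidence interval from limma). Dixdc1 lies farthest to the right at 1.60 and Fzd4 farthest to the left at -1.19, while the widest intervals belong to Wnt5a and Fzd5.

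Of the 19 Wnt ligands, 8 were tested, and they went both ways, with 5 higher and 3 lower in the knockout and a median difference of 0.01. Wnt4, a ligand that acts downstream of progesterone in mammary side branching, had log2 values of 6.13 and 5.69 in knockout glands, against 5.04 and 5.21 in wild-type glands. Both knockout arrays lay above both wild-type arrays, with a difference of 0.78 ± 0.19 (SE, n = 2 per genotype, limma adjusted p = 0.159). Its second probe set, too dim to be tested, gave 0.23 in the same direction.

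Wnt2, a ligand made by stromal cells in several organs, had 6.40 and 6.41 in the knockout, against 6.97 and 6.73 in the wild type. The knockout arrays lay together below both wild-type arrays (difference -0.44 ± 0.12 SE, limma adjusted p = 0.179). Wnt9a had 5.34 and 5.77 in the knockout, against 5.12 and 5.22 in the wild type, a difference of 0.38 ± 0.18 (SE, limma adjusted p = 0.307). Its groups did not overlap, though knockout replicate 1 lay only 0.17 above the wild-type mean and replicate 2 lay 0.60 above it.

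Wnt5a, the ligand best known for signalling without beta-catenin and an inhibitor of mammary ductal growth in the mouse, had 7.27 and 6.05 in the knockout, against 7.46 and 7.48 in the wild type. The low value came from knockout replicate 2, the array with the high muscle sum, and the difference of -0.81 ± 0.44 (SE) did not pass (limma adjusted p = 0.362). The wild-type arrays, with muscle sums of 357 and 3008, lay close together, and the part of muscle was not tested. Taken singly, knockout replicate 1 differed from the wild-type mean by -0.20 and replicate 2 by -1.42. A second tested probe set was likewise low only on knockout replicate 2, with 5.47 and 4.63 in the knockout, against 5.36 and 5.34 in the wild type. Wnt5a passed without knockout replicate 1 (limma adjusted p = 0.00571) and not without knockout replicate 2 (0.152). It lies on chromosome 14 like Mmp14, with 792 annotated genes between them.

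The other 4 tested ligands lay close to the wild type. Their differences were 0.03 for Wnt6, 0.02 for Wnt3a, 0.00 for Wnt7b and -0.08 for Wnt7a, and the groups overlapped for all but Wnt7a. Wnt7b, a ligand of ductal epithelium, had 6.65 and 6.99 in the knockout, against 6.90 and 6.74 in the wild type, with a confidence interval of the difference of -0.45 to 0.45. The remaining ligands, Wnt1, Wnt2b, Wnt3, Wnt5b, Wnt8a, Wnt8b, Wnt9b, Wnt10a, Wnt10b, Wnt11 and Wnt16, had mean signals below the limit for testing. Among them only Wnt5b and Wnt16 reached the limit on any array.

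None of the 4 R-spondins, secreted proteins that strengthen Wnt signals by removing the ligases Znrf3 and Rnf43 from the cell surface, was bright enough to be tested. Rspo3 had 4.40 and 4.60 in the knockout, against 4.55 and 4.31 in the wild type, and these groups overlapped. Their receptors Lgr4, Lgr5 and Lgr6 were all tested. Lgr4 had 8.40 and 8.18 in the knockout, against 8.10 and 8.17 in the wild type, a difference of 0.16 ± 0.12 (SE, limma adjusted p = 0.486) whose groups are parted by less than the spread of either pair. Lgr5, a marker of stem cells in gut and hair follicle, had 5.33 and 5.16 in the knockout, against 5.37 and 4.96 in the wild type, and its difference of 0.08 ± 0.18 (SE) turned to -0.0072 without knockout replicate 1 and to -0.13 without wild-type replicate 2. Lgr6 had 4.99 and 5.05 in the knockout, against 5.07 and 4.86 in the wild type. Its difference of 0.05 ± 0.12 (SE) turned to -0.053 without wild-type replicate 2, so no direction can be given for either gene.

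Frizzled receptors were the largest group tested, 9 of 10, with 6 higher and 3 lower in the knockout and a median difference of 0.19. The upstream sequences of Fzd7 and Fzd4 are shown because these receptors differed in opposite directions. Each holds the 250 bases before the gene's first listed start, 5′ to 3′ on the gene's strand, from RefSeq on the build GRCm38.p6. Capitals mark GC boxes (GGGCGG) and CCAAT boxes (CCAAT), searched on both strands with overlapping matches counted. Fzd7 lies at chr1:59481897-59482146 on the plus strand and Fzd4 at chr7:89404116-89404365 on the plus strand.
Fzd7: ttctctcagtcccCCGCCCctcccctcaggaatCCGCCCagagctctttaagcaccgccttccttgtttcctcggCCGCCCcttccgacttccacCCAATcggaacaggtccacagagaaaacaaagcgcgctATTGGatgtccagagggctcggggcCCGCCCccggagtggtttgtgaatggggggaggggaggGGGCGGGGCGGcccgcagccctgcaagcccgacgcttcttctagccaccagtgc
Fzd4: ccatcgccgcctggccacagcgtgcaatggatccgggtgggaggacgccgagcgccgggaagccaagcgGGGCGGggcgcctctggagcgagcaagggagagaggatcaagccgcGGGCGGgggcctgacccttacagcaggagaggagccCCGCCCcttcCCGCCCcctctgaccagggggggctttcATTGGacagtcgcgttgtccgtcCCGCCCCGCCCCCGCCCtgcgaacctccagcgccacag
The Fzd7 stretch held 6 GC boxes, 2 CCAAT boxes and 17 CpG dinucleotides at 65.2% GC, and the Fzd4 stretch held 7 GC boxes, 1 CCAAT box and 25 CpG dinucleotides at 72.8% GC. Both are thus GC-rich stretches, beside a median of 52.4% GC and 6 CpG over the 32851 listed promoters, of which 32.7% held a GC box and 33.8% a CCAAT box. Neither contained the TCF/LEF core motif CTTTGAT or CTTTGAA, which 7.48% of the listed promoters held in one form or the other. Of the 39 members with a listed promoter, 2, Wnt11 and Dkk1, held such a core before their first listed start, and neither gene was bright enough to be tested. A match describes the letters of the window and shows no binding.

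Fzd7, a receptor of mammary and other stem cells, had a second probe set, too dim to be tested, that gave -0.04 with overlapping groups. The mean over its probe sets gave 0.36. By its brightest probe set Fzd7 had 8.28 and 8.54 in the knockout, against 7.83 and 7.49 in the wild type. Both knockout arrays were above both wild-type arrays, by 0.75 ± 0.17 (SE, limma adjusted p = 0.153), or 1.69-fold. It passed without knockout replicate 1 (limma adjusted p = 0.0318) and not without knockout replicate 2 (0.0979).

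Fzd4, the receptor of Wnt ligands and of norrin in blood vessels, went the other way. It had 8.66 and 8.21 in the knockout, against 9.62 and 9.61 in the wild type. The wild-type arrays agreed closely and both knockout arrays lay well below them (difference -1.19 ± 0.18 SE, confidence interval -1.69 to -0.68, limma adjusted p = 0.115), or 2.28-fold. It passed without knockout replicate 1 (limma adjusted p = 0.00571) and without knockout replicate 2 (0.0259). Its second probe set was too dim to be tested and gave -0.13. The 8 markers of blood endothelium summed to 5549 and 6038 in the knockout, against 6665 and 6466 in the wild type. Of these markers 7 were lower and 1, Cldn5, was higher by 0.24 without overlap. Their sum was the lower one on knockout replicate 1, whereas Fzd4 was lower on knockout replicate 2. The 7 brown fat markers, whose sums are given above, were also lower in the knockout. The part of either cell type in the Fzd4 value was not tested.

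Fzd8 had 5.78 on each knockout array, against 6.52 and 6.34 in the wild type. The difference was -0.65 ± 0.11 (SE, limma adjusted p = 0.12), and it passed when knockout replicate 1 (0.0235) or knockout replicate 2 (0.049) was left out. Fzd3, a receptor known for planar polarity and axon guidance, had 6.04 and 5.93 in the knockout, against 5.63 and 5.57 in the wild type. Its difference was 0.38 ± 0.10 (SE, limma adjusted p = 0.168), but another tested probe set of the gene gave -0.20, so the 2 disagreed in direction. Fzd3 also lies on chromosome 14, with 338 annotated genes between it and Mmp14.

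Fzd2 had 7.11 and 6.76 in the knockout, against 6.69 and 6.41 in the wild type, a difference of 0.38 ± 0.18 (SE, limma adjusted p = 0.314). Its 2 other tested probe sets gave 0.20 and 0.12, the same direction at smaller size. Fzd6, Fzd9 and Fzd10 differed by 0.20, 0.19 and 0.08, and Fzd9 lay below the limit for testing on both wild-type arrays. Fzd5 was the frizzled gene with the widest spread, with 6.62 and 5.19 in the knockout, against 5.94 and 6.25 in the wild type. Its knockout arrays lay on opposite sides of the wild type, at 0.52 and -0.91 from the wild-type mean, in the order of the epidermal marker sums, and the part of that tissue was not tested. The values of Fzd2, Fzd3, Fzd5, Fzd6, Fzd9 and Fzd10 are given beyond the rule for named genes.

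The co-receptor Lrp6 had 5.48 and 5.21 in the knockout, against 5.08 and 5.26 in the wild type, and the groups overlapped (difference 0.17 ± 0.15 SE). Lrp5 was too dim to be tested. Ror1 and Ror2 are receptors of Wnt5a that signal without beta-catenin. Ror1 had 5.68 and 5.64 in the knockout, against 5.57 and 5.42 in the wild type, a difference of 0.16 ± 0.10 (SE, limma adjusted p = 0.41). Ror2 had 5.34 and 5.15 in the knockout, against 5.39 and 5.17 in the wild type, and its difference of -0.03 ± 0.14 (SE) had no settled direction, at 0.063 without knockout replicate 2 and 0.077 without wild-type replicate 1.

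Znrf3, the ligase that removes frizzled receptors from the cell surface and is itself a Wnt target, was higher in the knockout. It had 6.57 and 6.51 in the knockout, against 6.07 and 6.14 in the wild type. Each pair lay close together and the pairs were apart by 0.44 ± 0.09 (SE, limma adjusted p = 0.145). It passed without knockout replicate 1 (0.032) and missed the threshold without knockout replicate 2 (0.0501). A dimmer probe set that was not tested gave -0.12. The other ligase, Rnf43, was too dim to be tested.

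**Figure D2:**
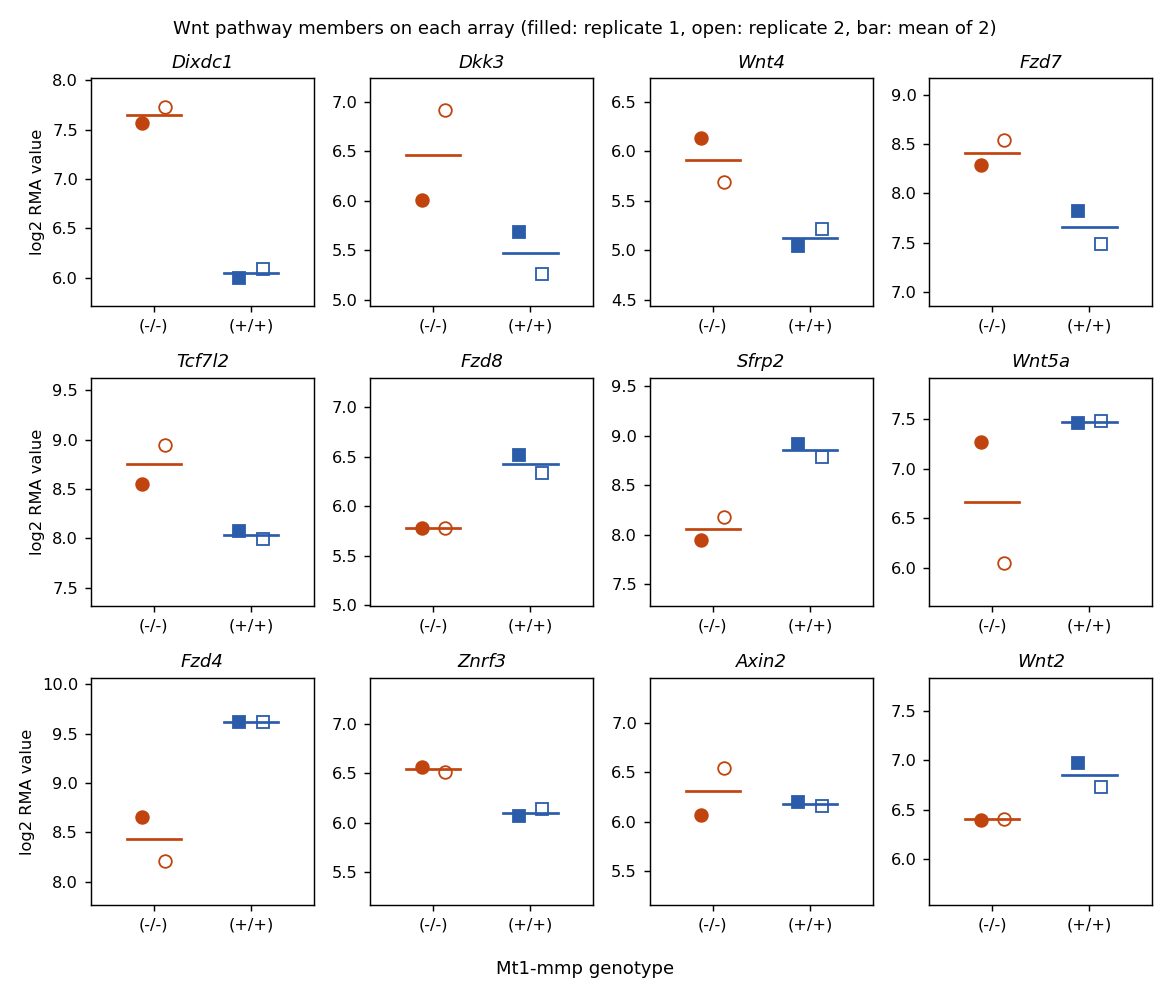
Log2 RMA value of 12 members on each array, 1 panel per gene with its own value axis (orange circles: Mt1-mmp(-/-); blue squares: Mt1-mmp(+/+); filled: replicate 1; open: replicate 2; line: mean of the 2 arrays). The genotype means are farther apart than the replicates of either genotype in every panel except Wnt5a and Axin2. In Dkk3 the margin is small, as the genotypes are 0.99 and its knockout replicates 0.91 apart.

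Among secreted proteins of the frizzled-related and Dickkopf families, Sfrp2 was lower and Dkk3 higher in the knockout. Sfrp2, a frizzled-related protein of stromal fibroblasts that can bind Wnt ligands, had 7.95 and 8.17 in the knockout, against 8.92 and 8.78 in the wild type. Both knockout arrays lay below both wild-type arrays (difference -0.79 ± 0.13 SE, limma adjusted p = 0.119), or 1.73-fold. It passed without knockout replicate 1 (0.0179) and without knockout replicate 2 (0.0314). The 10 fibroblast markers summed to 28210 and 23832 in the knockout, against 30098 and 27818 in the wild type, and these sums overlapped. The markers did not move together, with 4 higher and 6 lower and a median difference of -0.07. Their part in the Sfrp2 value was not tested.

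The groups overlapped for the other frizzled-related genes. Sfrp1 had 5.68 and 5.77 in the knockout, against 5.74 and 5.37 in the wild type, an overlap with a difference of 0.17 ± 0.16 (SE) that turned to -0.0094 without wild-type replicate 2. Sfrp5 had 5.12 and 5.17 in the knockout, against 5.22 and 5.09 in the wild type, a difference of -0.01 ± 0.10 (SE) that turned to 0.014 without knockout replicate 1 and to 0.055 without wild-type replicate 1. Frzb was too dim to be tested.

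Wif1, a secreted protein that binds Wnt ligands, was below the limit for testing on average. It had 6.23 and 4.41 in the knockout, against 4.27 and 4.34 in the wild type. Knockout replicate 1 alone was high, the same array on which 11 of the 12 epidermal and hair follicle markers were at least 2-fold above the wild-type mean, and the part of that tissue was not tested.

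Dkk3, a member of the Dickkopf family that, unlike Dkk1, is not established as an inhibitor of Lrp co-receptors, had 6.01 and 6.91 in the knockout, against 5.68 and 5.26 in the wild type. Both knockout arrays lay above both wild-type arrays, but the knockout arrays were themselves apart by nearly as much as the genotypes, and the difference of 0.99 ± 0.37 (SE) did not pass (limma adjusted p = 0.238). A second tested probe set had 5.79 and 6.14 in the knockout, against 5.22 and 4.90 in the wild type, a difference of 0.90 ± 0.19 (SE, limma adjusted p = 0.143 over all probe sets tested). Dkk3 passed without knockout replicate 1 (0.0182), where its difference was 1.44, and not without knockout replicate 2 (0.164), where it was 0.54. The high array is the one with the high muscle sum. Between the wild-type arrays the order was the reverse, with muscle sums of 357 and 3008 where Dkk3 had 5.68 and 5.26. The part of muscle was not tested. Dkk1, Dkk2 and Dkk4 were too dim to be tested.

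**Figure D3:**
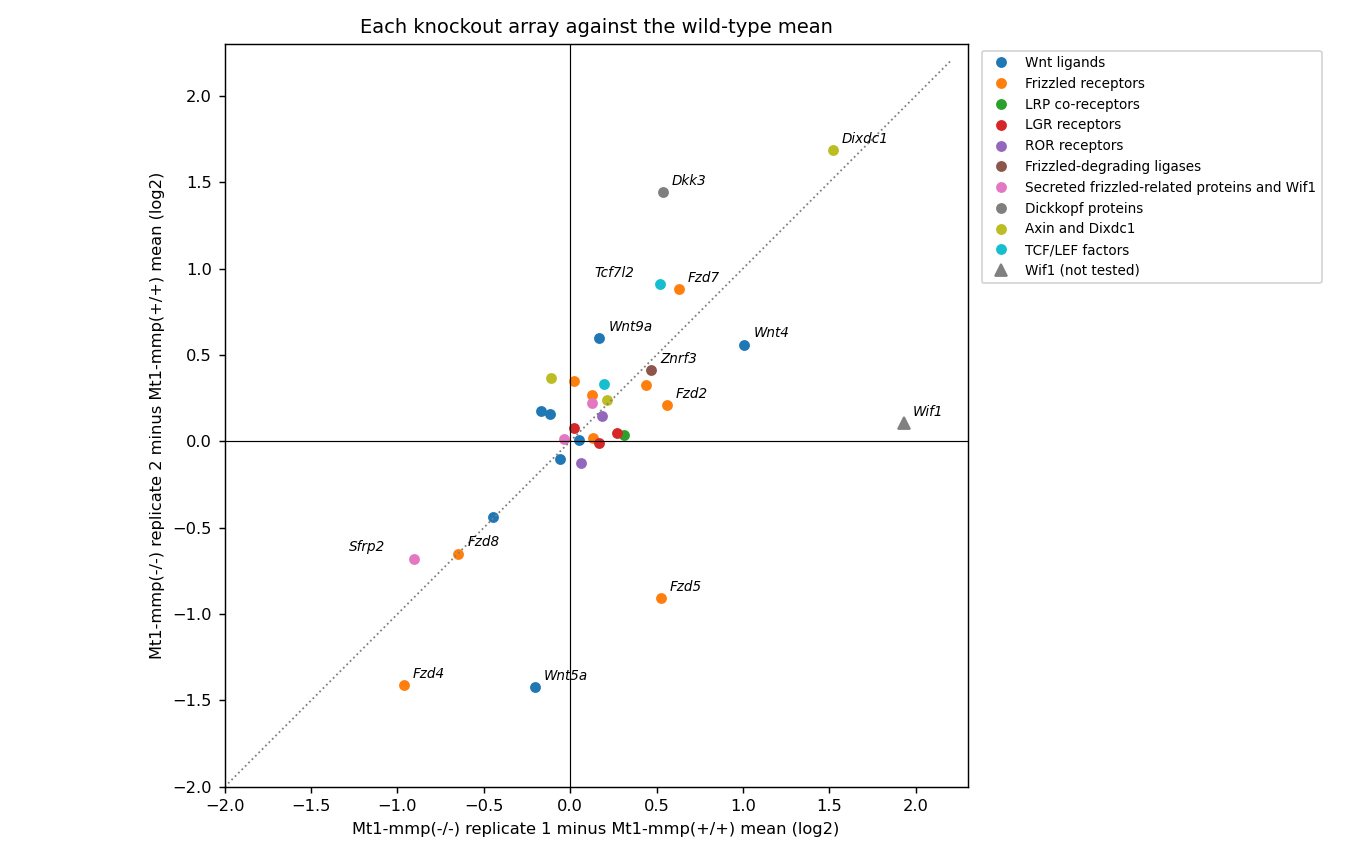
Each knockout array set against the mean of the wild-type arrays, in log2 RMA value, for the 33 tested members and Wif1 (horizontal axis: Mt1-mmp(-/-) replicate 1; vertical axis: replicate 2; colour: role; dotted line: equal values). Dixdc1, Fzd8 and Sfrp2 lie near the dotted line, whereas Fzd5, Wnt5a, Dkk3 and Wif1 lie away from it because the knockout arrays differed.

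Read array by array, 20 tested members were above the wild-type mean on both knockout arrays, 6 were below it on both, and 7 lay on opposite sides. The median absolute difference between the knockout arrays was 0.19 over the members and 0.21 over all genes tested. Between the wild-type arrays it was 0.11 over the members and 0.08 over all genes tested. Of the tested members, Wnt5a and Fzd5 were more than 2-fold apart between the knockout arrays, and none was between the wild-type arrays.

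Dixdc1, whose DIX domain resembles those of Axin and Dishevelled and which acts as a positive regulator of Wnt signalling in zebrafish and cultured cells, differed more than any other tested member. It had 7.57 and 7.73 in the knockout, against 6.00 and 6.09 in the wild type. Each pair was tight and the pairs were apart by 1.60 ± 0.11 (SE, confidence interval 1.30 to 1.91), or 3.04-fold, with a limma adjusted p of 0.0955. It ranked 16 of the 11078 genes by p. It passed without knockout replicate 1 (0.00561) and without knockout replicate 2 (0.0229).

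The other probe sets of Dixdc1 did not show a difference of this size. A second tested probe set had 5.05 and 5.07 in the knockout, against 4.92 and 4.91 in the wild type, a difference of 0.14 ± 0.09 (SE, limma adjusted p = 0.411 over all probe sets tested). A pair of dimmer ones that were not tested gave 0.19 and 0.01. With the mean over all probe sets of the gene in place of the brightest, the difference was 0.49. RefSeq lists more than one start for this gene, and the 250 bases before a pair of them are shown because the probe sets of the gene disagreed and its starts differ in sequence. The first stretch lies at chr9:50737736-50737985 and the second at chr9:50727985-50728234, both on the minus strand of GRCm38.p6, written 5′ to 3′ on the gene's strand.
Dixdc1, first listed start: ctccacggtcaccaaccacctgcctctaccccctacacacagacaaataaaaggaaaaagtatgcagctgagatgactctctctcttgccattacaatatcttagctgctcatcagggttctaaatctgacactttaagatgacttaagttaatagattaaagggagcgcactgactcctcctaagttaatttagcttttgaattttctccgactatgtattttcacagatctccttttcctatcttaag
Dixdc1, second listed start: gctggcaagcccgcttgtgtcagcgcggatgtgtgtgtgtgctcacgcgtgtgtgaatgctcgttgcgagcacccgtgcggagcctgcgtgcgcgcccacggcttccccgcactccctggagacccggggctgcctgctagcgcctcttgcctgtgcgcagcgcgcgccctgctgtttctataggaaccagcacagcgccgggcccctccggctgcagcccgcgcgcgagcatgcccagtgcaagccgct
The letters of the stretches differ in kind. The first had 40% GC and 3 CpG dinucleotides, below the median of all listed promoters, and the second had 70% GC and 28 CpG dinucleotides, above it. Neither held a GC box, a CCAAT box, a TATA box (TATAAA, in 12.4% of listed promoters) or either TCF/LEF core, so no letters are in capitals. Which start the transcripts read by each probe set come from was not determined.

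**Figure D4:**
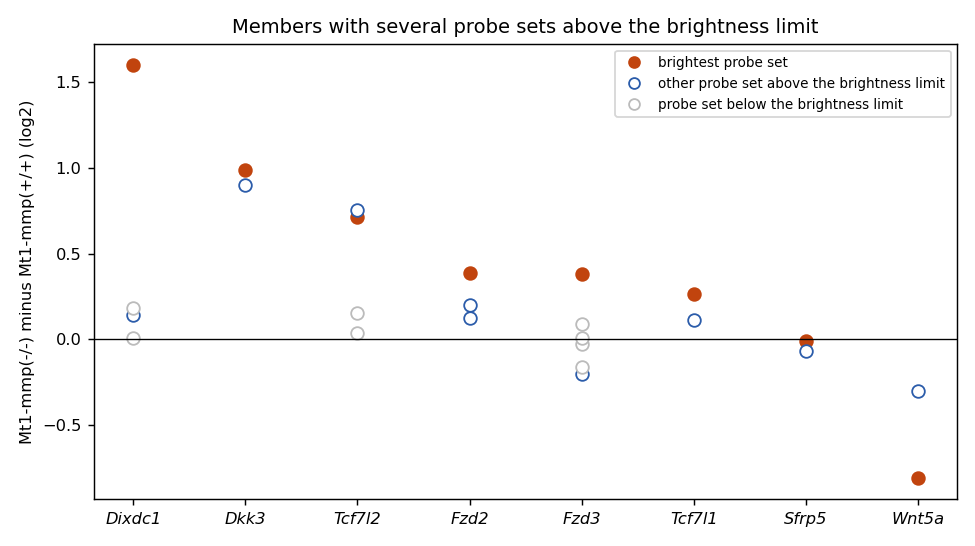
Difference between Mt1-mmp(-/-) and Mt1-mmp(+/+) glands in log2 RMA value by probe set, for the 8 tested members with several probe sets above the brightness limit (filled: brightest probe set, used for the gene; blue open: other probe sets above the limit; grey open: probe sets below it). The probe sets of Dkk3 and of Tcf7l2 above the limit lie together, those of Dixdc1 lie at 1.60 and 0.14, and those of Fzd3 lie on both sides of 0.

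Axin1 and Axin2 are scaffolds of the destruction complex, and Axin2 is a widely used target of beta-catenin signalling. Axin1 had 7.33 and 7.36 in the knockout, against 7.16 and 7.08 in the wild type, a difference of 0.22 ± 0.09 (SE, limma adjusted p = 0.273) without overlap. Axin2 had 6.07 and 6.55 in the knockout, against 6.20 and 6.15 in the wild type. Its knockout arrays lay on opposite sides of the wild-type pair, and the difference of 0.13 ± 0.19 (SE, confidence interval -0.41 to 0.67, limma adjusted p = 0.723) turned to -0.11 without knockout replicate 2. Without knockout replicate 1 it passed at 0.37 (limma adjusted p = 0.0363).

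Of the nuclear factors, Tcf7l2 was higher in the knockout. Tcf7l2, a TCF factor that activates transcription with beta-catenin, had 8.55 and 8.95 in the knockout, against 8.08 and 8.00 in the wild type. Both knockout arrays were above both wild-type arrays, by 0.71 ± 0.17 (SE, limma adjusted p = 0.155), or 1.64-fold. A second tested probe set had 6.07 and 6.04 in the knockout, against 5.32 and 5.29 in the wild type. It gave nearly the same difference with tighter replicates, 0.75 ± 0.09 (SE, limma adjusted p = 0.101 over all probe sets tested). A pair of dimmer probe sets that were not tested gave 0.16 and 0.04. With the mean over all probe sets of the gene the difference was 0.41. Tcf7l2 passed without knockout replicate 1 (0.00983) and without knockout replicate 2 (0.0461).

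Tcf7l1, a TCF factor known mainly as a repressor, had 9.35 and 9.49 in the knockout, against 9.17 and 9.15 in the wild type, a difference of 0.26 ± 0.10 (SE, limma adjusted p = 0.253) without overlap. It passed only without knockout replicate 1 (0.0412). A second tested probe set of Tcf7l1 had 8.08 and 8.33 in the knockout, against 8.13 and 8.06 in the wild type. Its groups overlapped, with a difference of 0.11 ± 0.13 (SE, limma adjusted p = 0.637 over all probe sets tested). Lef1, a factor of the mammary placode and its mesenchyme, was too dim to be tested, with 3.86 and 3.89 in the knockout, against 3.86 and 3.95 in the wild type.

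Fzd10os, the opposite-strand transcript, had 4.75 and 4.78 in the knockout, against 4.72 and 4.56 in the wild type, and was too dim to be tested. Over the 25 members that were not tested, array values other than those of Wif1 ran from 3.58 to 5.12, and differences other than that of Wif1 ran from -0.15 to 0.27. The knockout was higher without overlap in 8 of them and lower without overlap in 4, and the groups overlapped in 13. The 12 without overlap were 48% of these members, beside 34% of the 6019 genes not tested, of which 18.4% were higher and 15.6% lower. RMA compresses differences at such low signal, so these values give no bound on the true ones.

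Other genes of the pathway were described from 5 lists holding 72 genes, of which 67 were on the array and 53 were bright enough to be tested. Apcdd1, Nkd1 and Notum each stand in more than one list and are counted in each below, so the counts by list add up to more than those over all genes of the lists. No gene of these lists passed the adjusted threshold. An unadjusted limma p under 0.05 was reached by 8 higher and 7 lower genes, 28.3% of those tested beside 21.8% of all genes tested, and the median difference of the tested genes was 0.06. The genes went both ways, 32 higher and 21 lower. The groups did not overlap for 19 of the higher and 13 of the lower ones, 60.4% of those tested beside 58.8% of all genes tested, a share near the background.

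Of 10 tested genes for ligand release and surface partners, 5 were higher and 5 lower in the knockout. Trabd2b, a membrane protease that inactivates Wnt proteins by cutting their amino-terminal end, had 6.23 and 5.69 in the knockout, against 7.80 and 7.89 in the wild type. Its difference of -1.88 ± 0.21 (SE, limma adjusted p = 0.102) was larger in size than that of any member. Gpc4, a glypican that carries Wnt ligands at the cell surface, was lower without overlap, with a difference of -0.67 ± 0.13 (SE, limma adjusted p = 0.132). Sostdc1, a secreted inhibitor of Wnt and BMP signals in skin appendages and mammary buds, had 6.13 and 5.62 in the knockout, against 5.02 and 4.86 in the wild type, a difference of 0.94 ± 0.21 (SE, limma adjusted p = 0.151).

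Of 18 tested cytoplasmic genes, 10 were higher and 8 lower. Nlk, a kinase that phosphorylates TCF/LEF factors, differed by -0.76 ± 0.11 (SE, limma adjusted p = 0.105). Ctnnbip1, which keeps beta-catenin from TCF factors, differed by -0.71 ± 0.21 (SE, limma adjusted p = 0.192), and Amer1, a partner of the destruction complex, by -0.34 ± 0.10 (SE, limma adjusted p = 0.184). The knockout arrays lay below the wild-type arrays in all 3. Ctnnb1, the beta-catenin gene, which was added outside the naming rule, differed by -0.13.

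Of 8 tested nuclear partners, 6 were higher and 2 lower, with Hbp1 at 0.43 ± 0.10, the co-repressor Tle1 at 0.51 ± 0.18 and the beta-catenin adaptor Bcl9 at 0.26 ± 0.13 (SE, limma adjusted p = 0.157, 0.226 and 0.34). Of 8 tested planar polarity genes, 5 were higher and 3 lower. Celsr2, an atypical cadherin of that pathway, had 8.76 and 8.33 in the knockout, against 7.06 and 7.06 in the wild type, a difference of 1.48 ± 0.18 (SE, limma adjusted p = 0.105). The polarity genes Vangl2 and Scrib differed by 0.38 ± 0.09 and 0.27 ± 0.09 (SE), and all 3 had both knockout arrays above both wild-type arrays.

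Of 11 tested genes reported as Wnt targets in other tissues, 8 were higher and 3 lower. The groups did not overlap for only 1 higher and 1 lower gene, where they did not for 58.8% of all genes tested. Against the wild-type mean the list median was 0.16 on knockout replicate 1 and -0.07 on replicate 2, so the list had no common direction. Ccnd1, the cyclin D1 gene, had 9.35 and 8.94 in the knockout, against 10.03 and 9.83 in the wild type, a difference of -0.78 ± 0.18 (SE, limma adjusted p = 0.153). Myc, a growth regulator, had 8.43 and 8.02 in the knockout, against 7.64 and 7.75 in the wild type, a difference of 0.53 ± 0.18 (SE, limma adjusted p = 0.215). These well-known targets therefore differed in opposite directions, each without overlap. Apcdd1, a membrane inhibitor of Wnt signals, differed by 0.44 ± 0.33 (SE), with overlapping groups.

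**Figure D5:**
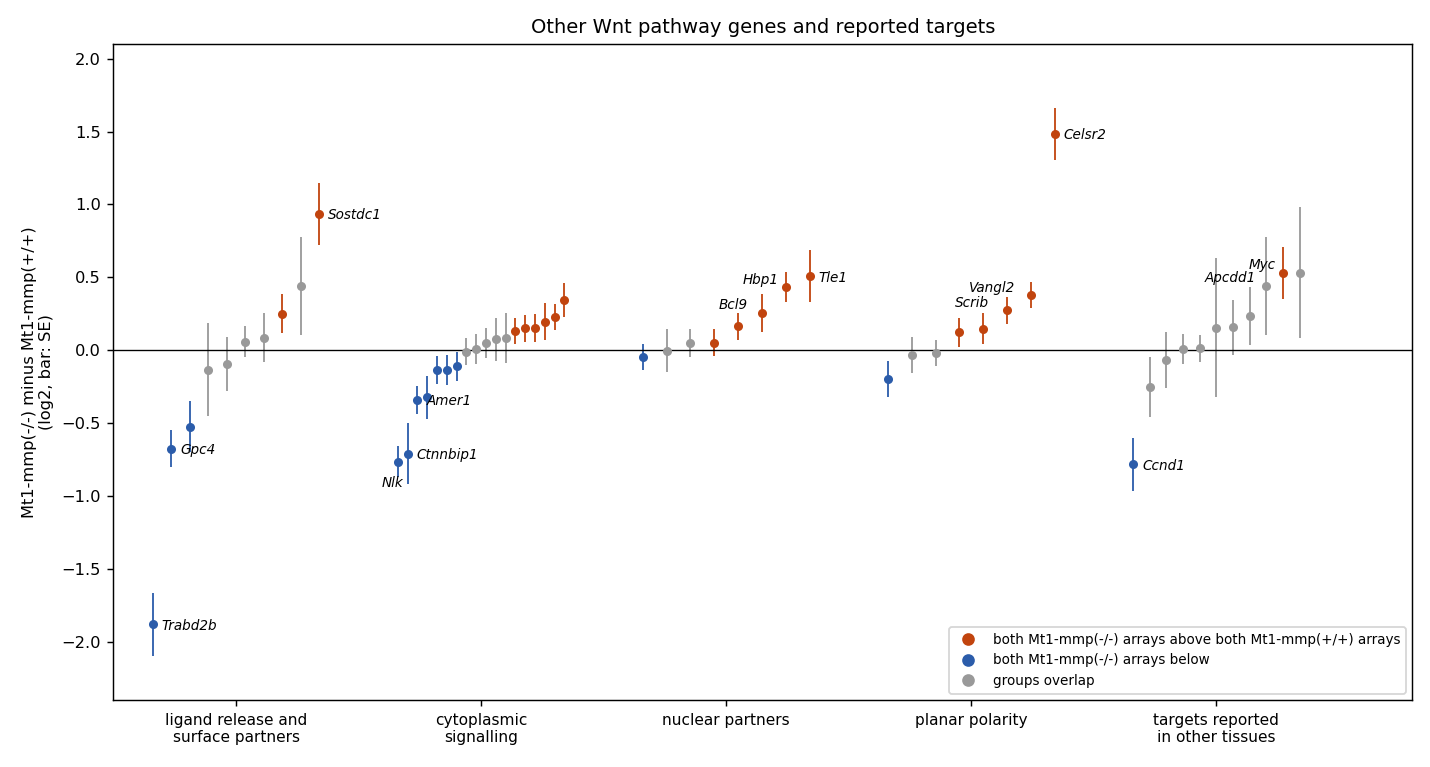
Difference between Mt1-mmp(-/-) and Mt1-mmp(+/+) glands in log2 RMA value for the 53 tested genes of the 5 pathway lists, with Apcdd1 and Nkd1 drawn in both of their lists, ordered by size within each list (bar: SE from limma; red: both Mt1-mmp(-/-) arrays above both Mt1-mmp(+/+) arrays; blue: both below; grey: overlap). Trabd2b at -1.88 and Celsr2 at 1.48 lie farthest from 0, and each list holds genes on both sides.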

How the data were processed

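The arrays measured biotin-labelled RNA amplified from the 3′ end of transcripts, per the labels' protocols. The authors deposited log2 expression values made by RMA with the affy package, as the submitters' processing notes say without versions. That the scale is log2 was read from the values. RMA equalises the arrays' distributions, so a shift common to most genes cannot be seen. With 4 arrays, precision is limited by their number, and detection calls were not used.

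Gene names came from the annotation of the array design. Of 45141 probe sets, 28898 name 1 gene, 551 several and 15692 none. Only the first kind was used, and gene IDs of all 58 members matched RefSeq (GRCm38.p6). The members had 97 probe sets.

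Limma 3.58.1 under R 4.3.3 (lmFit, eBayes, no covariate) set knockout against wild-type arrays on the deposited log2 values, with p-values adjusted by the Benjamini-Hochberg method over all 11078 genes tested. Adjusted p-values of single probe sets were adjusted over all probe sets tested. The confidence intervals are at 95%. The fit was tested on simulated data. Differences are knockout minus wild type. Labels call the samples biological replicates without saying how they were kept apart, so p-values measure the spread between these samples. Tables and figures were made with Python 3.11.15.

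The members, the lists of pathway and marker genes and the alternatives were chosen with earlier results of these data known. Every member was counted. Given in full were members with an adjusted p under 0.05, those without overlap and at least 0.6 apart, in each role up to 3 with the smallest p and the brightest, Mmp14, and in each pathway list up to 3 with the smallest p. Other members given with values were chosen after those were seen. The 15 alternatives changed the filter, the probe set per gene, the scaling, the variance model, the pairing or the arrays used.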

Additional observations from a re-analysis of the deposited data

How the results depend on the processing

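Under 11 alternatives that kept all 4 arrays, 0 members and 0 genes passed an adjusted p of 0.05 in limma, while leaving out 1 array gave 0 to 4180 genes and 0 to 16 members, with the high counts where a knockout array was left out. The number of members with an unadjusted p under 0.05 was 10. It was 14 with no filter, which tests all 58 members, 4 with the filter at the 75th percentile, which tests 9, 9 with the mean of all probe sets or with array weights, and 4 to 18 with 1 array left out. The median difference of the members, 0.16, was 0.079 with no filter, 0.20 with the filter at the 75th percentile, 0.080 with the mean of all probe sets, and 0.13 with median centring, cyclic loess or quantile normalization, and ran from 0.10 to 0.16 with 1 array left out. With 1 array left out, Lgr5 ran from -0.13 to 0.29 (-0.0072 without knockout replicate 1, -0.13 without wild-type replicate 2), Sfrp5 from -0.076 to 0.055 (0.014 without knockout replicate 1, 0.055 without wild-type replicate 1), Axin2 from -0.11 (without knockout replicate 2) to 0.37, Ror2 from -0.14 to 0.077 (0.063 without knockout replicate 2, 0.077 without wild-type replicate 1), and, with the low end without wild-type replicate 2, Lgr6 from -0.053 to 0.16 and Sfrp1 from -0.0094 to 0.35. Each thus changed direction, and the cause was not tested. No other member named by the rule changed direction under the alternatives that could be run for it. With the replicate number as a block, 0 members passed and 11 had an unadjusted p under 0.05. The labels do not say whether the numbers pair the arrays. The difference of replicates 1 and 2 correlated at -0.089 between the genotypes across genes, which cannot decide it with so few arrays. The low signal of 25 members limits what can be said of them.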
